A study of Mus musculus with 6 samples.

Results

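The interferon-induced transmembrane (Ifitm) family was examined in CD8+ T cells with low surface CD44 from sanroque and wild-type mice. Its members were taken by gene symbol, and 7 genes of the 19938 measured carried the listed names: Ifitm1, Ifitm2, Ifitm3, Ifitm5, Ifitm6, Ifitm7 and Ifitm10. Where a gene had several probe sets, the probe set was chosen by its mean log2 intensity over the 6 arrays, the highest standing for the gene, and that level is described without a test. The genotype difference played no part in the choice of probe set. The data were 6 Affymetrix mouse arrays, one for each sample, 3 from wild-type (Roquin+/+) and 3 from sanroque (Roquinsan/san) mice, all 10 weeks old and on a C57BL/6 background. The cells were obtained from suspensions of spleen and lymph nodes by flow sorting, and the labels call the arrays of a genotype biological replicates. Sanroque mice are homozygous for a point mutation in Rc3h1, whose product Roquin binds RNA, and every cell of the animal carries it.

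One array stood apart in a gene outside the family. Xist, the RNA of the inactive X chromosome, singled out after its values were seen, was at 11.20 on sanroque array 1 and between 4.02 and 4.17 on the others, and its part in the results was not tested. With that array left out, the log2 folds described later were 3.24 for Ifitm3, 3.05 for Ifitm6, 1.38 for Ifitm1 and 0.64 for Ifitm2, and all but Ifitm2 passed the limma threshold.

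IFITM proteins are small membrane proteins of the cell surface and of endosomes. Ifitm1, Ifitm2 and Ifitm3 are induced by type I interferons and by interferon gamma, and their products block the fusion of enveloped viruses with host membranes. Memory CD8+ T cells, above all those resident in tissues, are known to keep IFITM3, which protects them during a second infection, while myeloid cells express several members at high level. Ifitm5 is known mainly from bone-forming cells. Other members, such as Ifitm7 and Ifitm10, are less well characterised.

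In the order of the RefSeq gene table, Ifitm5, Ifitm2, Ifitm1, Ifitm3 and Ifitm6 follow each other on chromosome 7 with no other protein-coding gene between them. Ifitm10 lies elsewhere on chromosome 7 and Ifitm7 on chromosome 16. The sequences just upstream of the transcription starts of the 4 members that were higher in sanroque cells are shown because these genes moved together and Ifitm1, Ifitm2 and Ifitm3 are known interferon targets. They come from RefSeq (build GRCm38.p6), 100 bases ending at the base before the start, 5′ to 3′ on the strand of the gene. For Ifitm3 a further stretch of 30 bases past the start is given. Capitals mark matches to 2 motifs searched on both strands, the interferon-stimulated response element core (GAAA, any 2 bases, GAAA) and the gamma-activated site (TTC, any 3 bases, GAA), whose pattern is its own reverse complement.

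Ifitm1, chr7:140967976-140968075, plus strand: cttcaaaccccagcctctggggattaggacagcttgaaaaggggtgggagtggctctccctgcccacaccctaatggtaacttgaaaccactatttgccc
Ifitm2, chr7:140955962-140956061, minus strand: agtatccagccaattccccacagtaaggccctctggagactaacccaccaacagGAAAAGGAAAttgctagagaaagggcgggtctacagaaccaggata
Ifitm3, chr7:141010745-141010844, minus strand: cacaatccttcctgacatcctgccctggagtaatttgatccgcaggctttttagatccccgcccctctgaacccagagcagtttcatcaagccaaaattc
Ifitm3 past the start, chr7:141010714-141010743, minus strand: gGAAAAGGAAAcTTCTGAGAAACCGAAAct
Ifitm6, chr7:141016893-141016992, minus strand: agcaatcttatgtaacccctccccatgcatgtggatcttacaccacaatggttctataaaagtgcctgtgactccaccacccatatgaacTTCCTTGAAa

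Over the whole windows of 250 bases before to 50 after a start, the Ifitm2 window held 1 response element core and the Ifitm3 window held 2. In Ifitm3 a gamma-activated site lies between these cores and overlaps the one farther from the start. Ifitm6 held 1 gamma-activated site, whose last base lies 2 bases before the start. The windows of Ifitm1, Ifitm5, Ifitm7 and the 3 of Ifitm10 held no match to either set of letters. Over all 32851 RefSeq windows of this length, 3.44% held the response element core and 8.30% the gamma-activated site. Among type I interferon response genes with a window, 11 of 19 held the core and 6 of 19 the gamma-activated site in at least 1 window, and among interferon gamma response genes 9 of 14 and 7 of 14. The list counts are by gene and the shares over all windows are by window. A gene with several windows has more chances of a match, so these figures are not directly comparable. All are matches of letters and show no binding.

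Of the 7 members, 4 were higher in sanroque cells and 0 were lower, by limma over all 19938 genes at a Benjamini-Hochberg adjusted p below 0.05. The 4 were Ifitm1, Ifitm2, Ifitm3 and Ifitm6, all of the chromosome 7 cluster. Of all genes tested, 3.26% were called higher, 2.51% lower and 5.77% in either direction. The differences were 10.4-fold for both Ifitm6 and Ifitm3, 2.81-fold for Ifitm1 and 1.61-fold for Ifitm2. Ifitm5, Ifitm7 and Ifitm10 did not pass. All 7 were tested, since no filter on low values was used. The median log2 fold of the 7 members was 0.69, against -0.03 over all genes. More cells of a type and more RNA per cell cannot be told apart in such bulk samples.

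**Figure D1:**
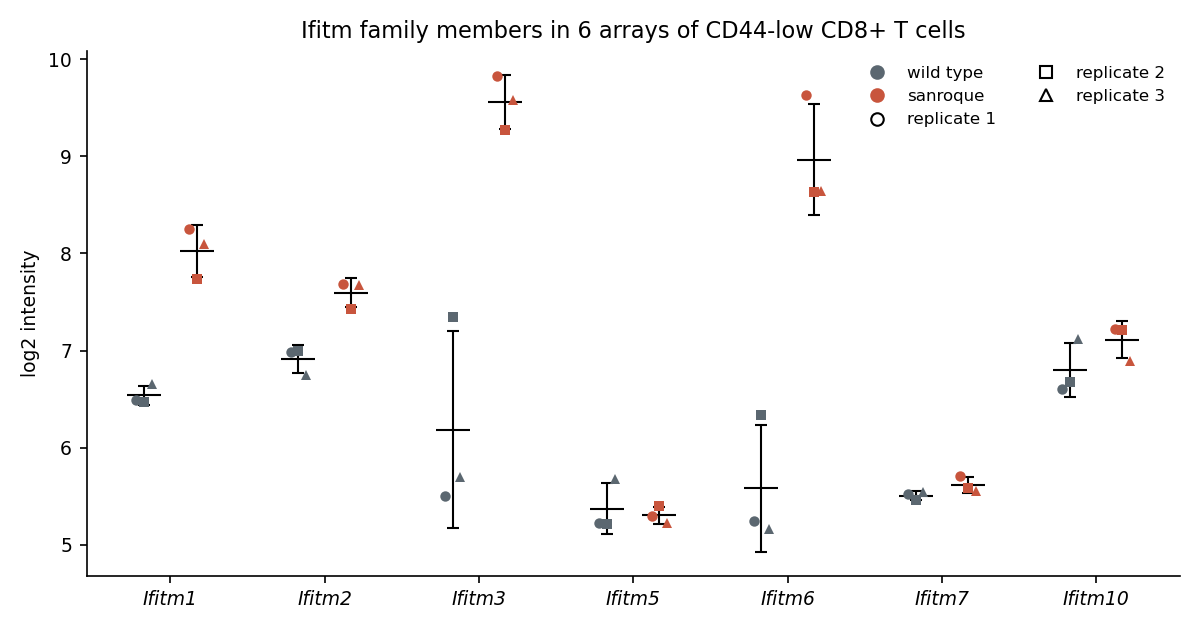
Log2 intensity (vertical axis) of each Ifitm member in the 3 wild-type (grey) and 3 sanroque (red) arrays, with the shape of the point giving the replicate number; bars are the mean and SD over 3 arrays. Ifitm3 and Ifitm6 have the widest gap between genotypes, and wild type replicate 2 stands far above the other wild-type arrays for these genes.

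Ifitm3, the member best known for blocking virus entry from endosomes, was at 5.51, 7.35 and 5.70 on wild-type arrays 1 to 3 and at 9.83, 9.27 and 9.58 on sanroque arrays 1 to 3 (log2 intensity). The groups did not overlap, and the lowest sanroque array was 1.92 above the highest wild-type array. The wild-type mean was 6.18 ± 1.01 and the sanroque mean 9.56 ± 0.28 (SD, n = 3 each). The log2 fold, sanroque minus wild type, was 3.38 ± 0.46 (SE; limma, Benjamini-Hochberg adjusted p = 0.0111). This was the 15th highest log2 fold of all genes. The wide wild-type spread came from replicate 2, which lay 1.75 above the mean of the other wild-type arrays. Without that array the difference was 15.6-fold rather than 10.4-fold (log2 fold 3.96, limma adjusted p = 0.000776). With wild type replicate 1 left out the adjusted p was 0.0496.

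Ifitm6, the neighbour of Ifitm3 in the cluster, was at 5.25, 6.34 and 5.16 on wild-type arrays 1 to 3 and at 9.63, 8.63 and 8.64 on sanroque arrays 1 to 3. The groups were 2.29 apart at their nearest arrays. The wild-type mean was 5.58 ± 0.65 and the sanroque mean 8.97 ± 0.57 (SD, n = 3 each), a log2 fold of 3.38 ± 0.38 (SE; limma, Benjamini-Hochberg adjusted p = 0.00538), the 14th highest of all genes. Wild type replicate 2 was again the highest of its group, by 1.13 over the mean of the other wild-type arrays, and sanroque replicate 1 was the highest of the sanroque arrays. Without wild type replicate 2 the difference was 13.6-fold. Wild-type arrays 1 and 3 lay below the array medians of all probe sets, 5.74 to 5.83 on the log2 scale, for both Ifitm3 and Ifitm6, so these folds rest on dim wild-type values.

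Ifitm1, whose product acts mostly at the cell surface, was at 6.49, 6.48 and 6.65 on wild-type arrays 1 to 3 and at 8.25, 7.73 and 8.10 on sanroque arrays 1 to 3. The groups were 1.08 apart and the wild-type arrays lay close together. The wild-type mean was 6.54 ± 0.10 and the sanroque mean 8.03 ± 0.27 (SD, n = 3 each), a log2 fold of 1.49 ± 0.14 (SE; limma, Benjamini-Hochberg adjusted p = 0.00307). Of all genes, 0.682% had a larger log2 fold. On this probe set wild type replicate 2 differed from the mean of the other wild-type arrays by -0.10, but on a dimmer Ifitm1 probe set it was the highest wild-type array.

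Ifitm2, a close relative of Ifitm3, was at 6.99, 7.0 and 6.75 on wild-type arrays 1 to 3 and at 7.69, 7.42 and 7.68 on sanroque arrays 1 to 3. The groups did not overlap, with a gap of 0.42. The wild-type mean was 6.91 ± 0.14 and the sanroque mean 7.60 ± 0.15 (SD, n = 3 each), a log2 fold of 0.69 ± 0.11 (SE; limma, Benjamini-Hochberg adjusted p = 0.0169). This call was the least secure of the 4. Its adjusted p was 0.0752 with wild type replicate 1 left out and 0.0534 with sanroque replicate 1 left out. Centring each array on its median gave 0.0570, and the replicate number as a block gave 0.0776 (limma, Benjamini-Hochberg).

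The 3 members that did not pass differed in how close they came. Ifitm10 was at 6.60, 6.67 and 7.11 on wild-type arrays 1 to 3 and at 7.23, 7.22 and 6.90 on sanroque arrays 1 to 3, so the groups overlapped. Its log2 fold was 0.31 ± 0.16 (SE; limma, Benjamini-Hochberg adjusted p = 0.352), with a 95% interval of -0.05 to 0.68. Ifitm7 was at 5.52, 5.46 and 5.54 on wild-type arrays 1 to 3 and at 5.71, 5.59 and 5.55 on sanroque arrays 1 to 3. These values just failed to overlap, by 0.01, and the log2 fold was 0.11 ± 0.07 (SE; limma, Benjamini-Hochberg adjusted p = 0.524), with a 95% interval of -0.06 to 0.27. Ifitm5, the bone member, was at 5.22, 5.22 and 5.67 on wild-type arrays 1 to 3 and at 5.29, 5.40 and 5.22 on sanroque arrays 1 to 3. Its groups overlapped, with a log2 fold of -0.07 ± 0.13 (SE; limma, Benjamini-Hochberg adjusted p = 0.892) and a 95% interval of -0.38 to 0.24. The sign of the Ifitm5 value turned without wild type replicate 3 (0.081) and with array weights (0.10). With array weights Ifitm10 passed, at a log2 fold of 0.54. Ifitm5 and Ifitm7 also read below the median of all probe sets, in every array. Counting Ifitm7, 5 of the 7 members had sanroque values that all lay above all wild-type values, as had 9.46% of all genes, and 22.7% of all genes did not overlap in either direction.

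**Figure D2:**
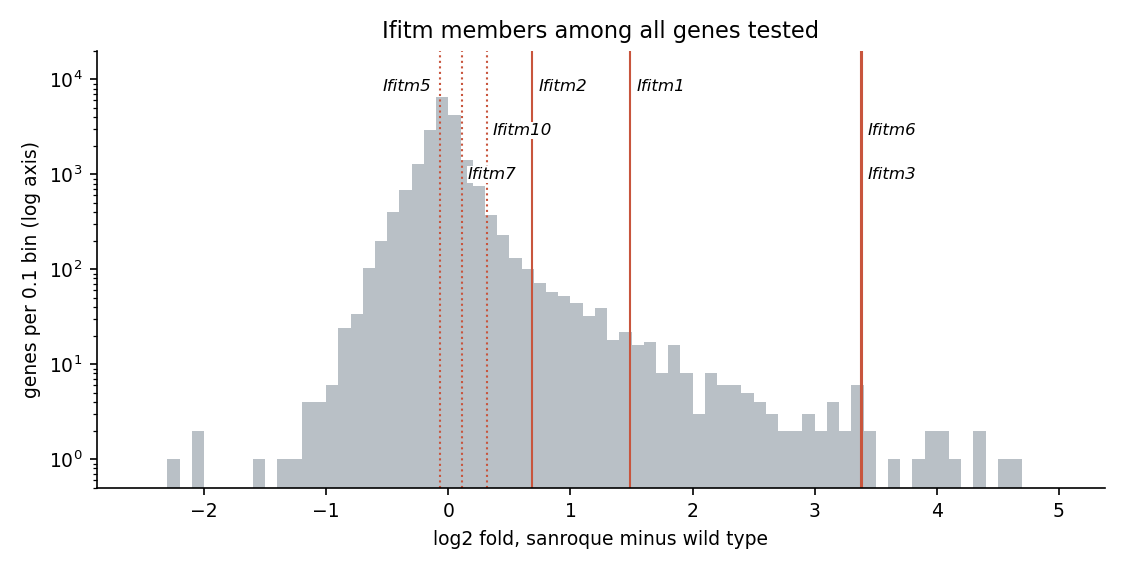
Number of genes (vertical log axis) in bins of 0.1 of the log2 fold, sanroque minus wild type, for all 19938 genes, with the 7 Ifitm members as vertical lines; solid lines are members called by limma at an adjusted p below 0.05, dotted lines those not called. Ifitm3 and Ifitm6 lie together at 3.38 in the thin upper tail, Ifitm1 at 1.49, Ifitm2 at 0.69, and the 3 others within the bulk of the genes.

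The family was covered by 10 probe sets with exactly 1 symbol, and 7 of these were called higher in a fit over all 21789 such probe sets, where 3.09% were called higher and 5.43% in either direction. Both Ifitm1 probe sets passed. The brighter one is described above, and the dimmer one was at 4.25, 4.67 and 4.35 on wild-type arrays 1 to 3 and at 6.80, 5.60 and 6.65 on sanroque arrays 1 to 3. Its log2 fold was 1.93 ± 0.30 (SE; limma, Benjamini-Hochberg adjusted p = 0.0189), with sanroque replicate 2 lowest of the sanroque arrays as on the brighter probe set. Wild type replicate 2 was the highest wild-type array on this probe set and on all 3 of Ifitm2, which the brighter Ifitm1 probe set does not share. On the brightest Ifitm2 probe set this was a near tie, at 7.001 against 6.989 on wild type replicate 1. All 3 Ifitm2 probe sets passed as well, but they differed in size. The probe set with the highest level gave a log2 fold of 0.69. The next was at 5.90, 6.36 and 6.25 on wild-type arrays 1 to 3 and at 7.84, 7.19 and 7.73 on sanroque arrays 1 to 3, a log2 fold of 1.41 ± 0.19 (SE; limma, Benjamini-Hochberg adjusted p = 0.0125). The dimmest was at 5.56, 6.01 and 5.33 on wild-type arrays 1 to 3 and at 7.44, 6.92 and 7.52 on sanroque arrays 1 to 3, a log2 fold of 1.66 ± 0.21 (SE; limma, Benjamini-Hochberg adjusted p = 0.00980). The platform annotation lists the same accessions for all 3. With the mean of its probe sets Ifitm2 had a log2 fold of 1.25 in place of 0.69. The family members have closely similar coding sequences, and whether a probe set also reads a relative or a processed copy was not tested.

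**Figure D3:**
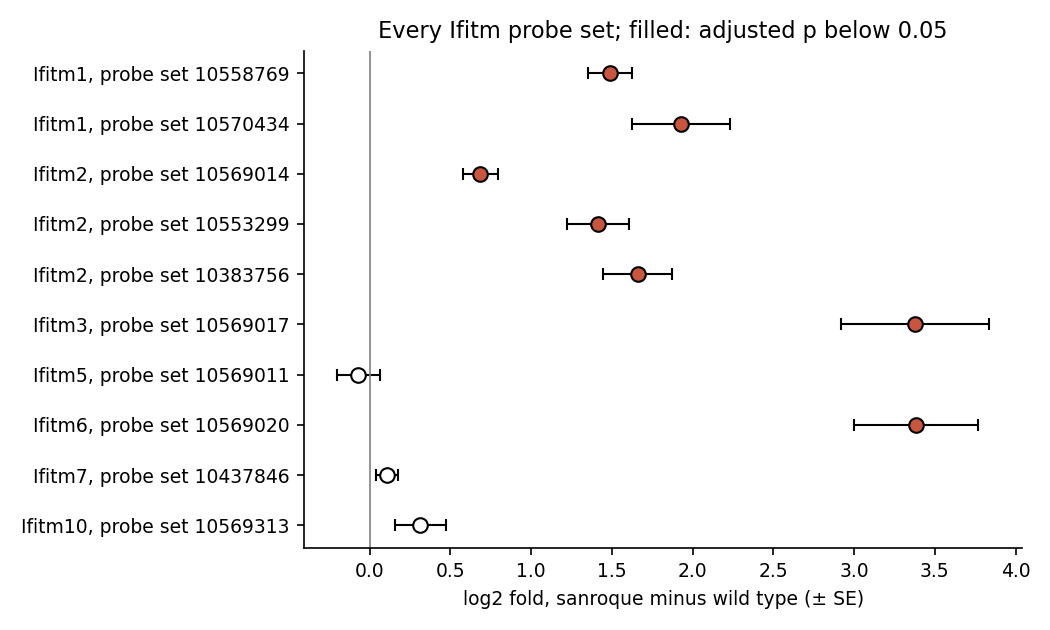
Log2 fold, sanroque minus wild type (horizontal axis), of each of the 10 Ifitm probe sets, with the SE of limma's fit as bars; filled points had an adjusted p below 0.05. The 3 Ifitm2 probe sets run from 0.69 to 1.66 and the 2 Ifitm1 probe sets from 1.49 to 1.93, while those of Ifitm5, Ifitm7 and Ifitm10 lie near 0.

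The 6 protein-coding genes next to the cluster, 3 on either side, were Cox8b, Nlrp6, Pgghg, B4galnt4, Pkp3 and Sigirr, and 0 of 6 passed (limma, Benjamini-Hochberg), where 5.77% of all genes passed in either direction, with 1 at an unadjusted p below 0.05 and log2 folds between -0.28 and -0.03. Cox8b, Nlrp6 and B4galnt4 were dim, with mean log2 levels of 5.13, 5.25 and 4.82, below every array median. With array weights 1 of them was called, as lower.

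Across arrays Ifitm3 and Ifitm6 had the most similar course, with a Pearson correlation of 0.985 over the 6 arrays, and the other pairs among Ifitm1, Ifitm2, Ifitm3 and Ifitm6 lay between 0.925 (Ifitm1 with Ifitm3) and 0.957 (Ifitm2 with Ifitm6). Such correlations hold the gap between genotypes and describe these arrays only. Of the other genes with a mean log2 level of at least 6 and an SD of at least 0.2, Ifitm3 was most like Gen1, Camk2d and Blnk, each at a correlation of 0.996. Ifitm6 was most like Tgfbi (0.998), Retnlg (0.996) and Ccnb2 (0.996). Ifitm1 was most like Hdc (0.995), Gda (0.994) and Plk1 (0.994). Retnlg is one of the neutrophil genes listed for the check of cell origin, and the other most similar genes are in none of those lists. The lists are short, so a gene outside them may still mark a cell type.

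Markers of other cell types were higher on the same sanroque arrays, and their part in the Ifitm differences was not tested. Of 12 neutrophil genes 10 were called higher, with a median log2 fold of 2.70, and their summed intensities ran from 645 to 1087 in wild type and from 5884 to 10958 in sanroque. Ngp, a neutrophil granule gene, was at 6.26, 7.41 and 6.44 on wild-type arrays 1 to 3 and at 11.32, 10.76 and 10.38 on sanroque arrays 1 to 3. Of 12 monocyte and macrophage genes 11 were called higher, with a median log2 fold of 1.39 and summed intensities of 745 to 1285 against 4597 to 4828. Cybb, a subunit of the phagocyte oxidase, was at 6.20, 7.92 and 6.44 on wild-type arrays 1 to 3 and at 10.15, 10.24 and 10.28 on sanroque arrays 1 to 3. The one monocyte gene not called was Cd14, at 0.10. Of 11 B cell genes 7 were called higher (median log2 fold 1.66, summed intensities 2177 to 5481 against 8324 to 10206). For the B cell list 0 genes passed without wild type replicate 1 and 10 without wild type replicate 2. With any other array left out 1 passed. In the same fits 9 to 11 genes each passed for the neutrophil and monocyte lists. Calls over all genes moved too, from 1151 to 218 without wild type replicate 1 and 489 without wild type replicate 2. They were 392 to 1315 with any other array left out. With arrays centred on their medians, or an offset of 16 added to the intensities, 2 B cell genes passed, and 11 with a minimum mean log2 level of 5. The neutrophil and monocyte counts stayed at 10 and 11 under that centring and that offset.

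Wild type replicate 2, the array where Ifitm3 and Ifitm6 were high for their group, also had the highest medians of these lists in wild type. It lay above the mean of the other wild-type arrays by 0.78 for neutrophil, 0.40 for monocyte and 0.84 for B cell genes. These lists were not alone, since the offset was 0.43 for CD4 T cell and 0.36 for NK cell genes. It was 0.17 for dendritic cell, 0.04 for erythroid, -0.03 for CD8 T cell and -0.10 for platelet genes. Plasma cell genes were at -0.23 and stromal and endothelial genes at -0.30. For interferon gamma response genes this offset was 0.01 and for type I interferon response genes -0.05. Among sanroque arrays, replicate 1 had the highest neutrophil median and the highest Ifitm1, Ifitm2, Ifitm3 and Ifitm6 on the probe sets standing for these genes. For Ifitm2 this was a near tie, at 7.689 against 7.68 on sanroque replicate 3, which was highest on the dimmest Ifitm2 probe set. Sanroque replicate 1 is also the array on which Xist was high. The monocyte and B cell medians were instead highest on sanroque replicate 3, at 2.05 and 2.02 above their wild-type means. Ifitm6 was 3.06 above its wild-type mean on that array and 4.05 on sanroque replicate 1. Without sanroque replicate 1 and wild type replicate 2 together, Ifitm3 and Ifitm6 had log2 folds of 3.83 and 3.43 and Ifitm1 of 1.34, all 3 past the threshold, while Ifitm2 at 0.68 did not pass (limma adjusted p = 0.106).

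**Figure D4:**
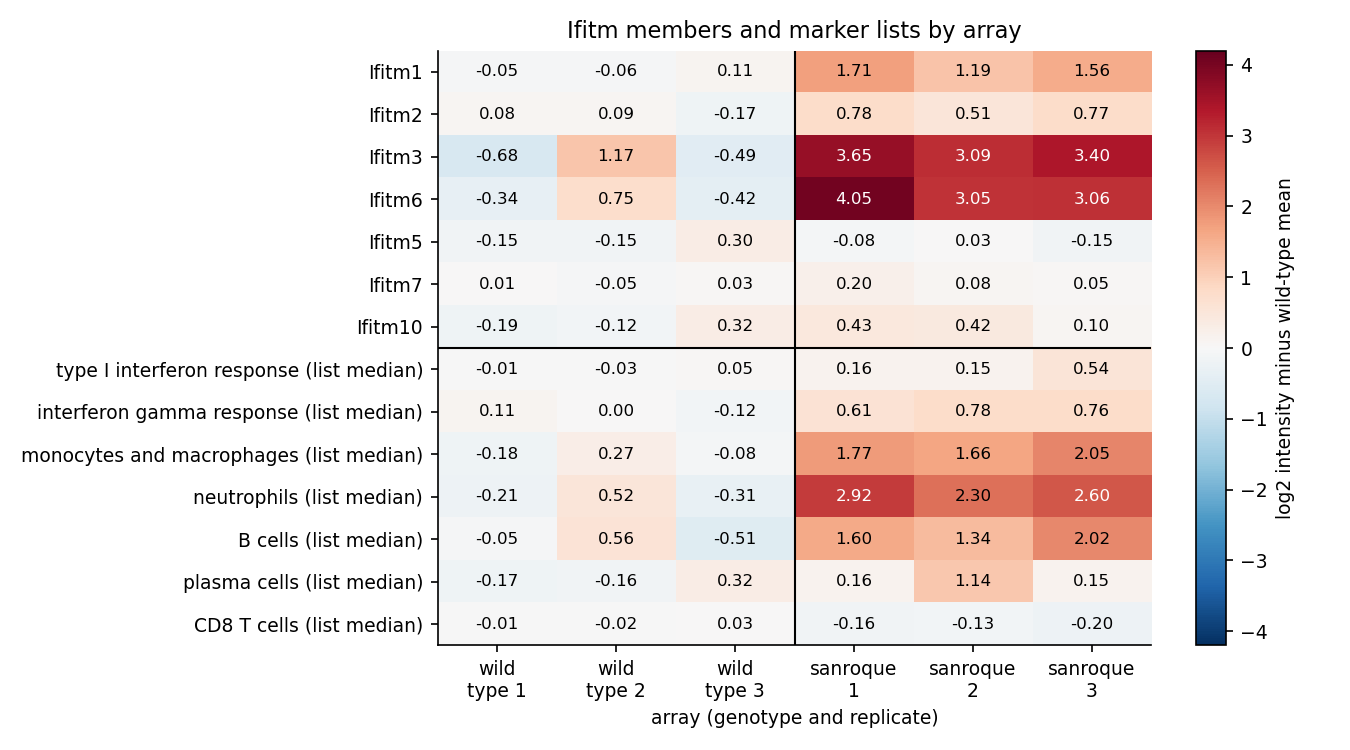
Log2 intensity minus the wild-type mean for each Ifitm member (upper rows) and for the medians of some gene lists (lower rows), in the 6 arrays (columns). Red is higher and blue lower. The lists plotted are the type I and gamma interferon responses, monocytes and macrophages, neutrophils, B cells, plasma cells and CD8 T cells. Of those not plotted, wild type replicate 2 was raised for CD4 T cell (0.29), NK cell (0.24) and dendritic cell genes (0.12). Wild type replicate 2 is raised for Ifitm3 (1.17), Ifitm6 (0.75), neutrophil (0.52) and B cell genes (0.56), and is at -0.064 for the Ifitm1 probe set plotted, while a dimmer Ifitm1 probe set, not plotted, had it highest of the wild-type arrays; all sanroque arrays are raised for Ifitm1, Ifitm2, Ifitm3 and Ifitm6.

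The labelled cells were present in all arrays. Cd8a, a chain of the CD8 coreceptor, read between 12.99 and 13.05, and Cd3g, a T cell receptor complex chain, between 12.83 and 13.11. Of 8 CD8 T cell genes 0 were higher and Cd3d was lower (log2 fold -0.52), a call lost with arrays centred on their medians and when either of replicates 1 and 2 of either genotype was left out. All 8 had negative log2 folds, with a median of -0.13. Their summed intensities ran from 41844 to 43156 in wild type and from 37918 to 39726 in sanroque, without overlap. Cd44, the gene of the sort marker, was higher by 1.40 ± 0.17 on the log2 scale (SE; limma, Benjamini-Hochberg adjusted p = 0.00669). Rc3h1 itself had a log2 fold of 0.14 (limma adjusted p = 0.564), which does not check a point mutation. Plasma cell and CD4 T cell lists had 4 of 7 genes higher each, NK cells 4 of 8 and dendritic cells 1 of 8. In the CD4 T cell list Zbtb7b, Il2ra, Ctla4 and Ikzf2 were called, and Cd4, Cd40lg and Foxp3 were not. In the NK cell list Klre1, Fcgr3, Eomes and Gzma were called, and Ncr1, Klrb1c, Klra8 and Nkg7 were not. Which cells the RNA of these genes came from was not tested. With arrays centred on their medians 2 plasma cell and 2 CD4 T cell genes passed. Leaving out single arrays left 1 to 3 plasma cell, 0 to 4 CD4 T cell, 3 to 5 NK cell and 0 or 1 dendritic cell genes. The lowest counts were always among those without wild type replicate 1, where the count over all genes was also lowest, at 218. Of 15 erythroid, platelet, and stromal or endothelial genes 0 were called (limma), with 1 at an unadjusted p below 0.05; 2 erythroid genes were called without sanroque replicate 3.

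Interferon response genes gave a mixed background. Of 15 measured interferon gamma response genes 11 were higher and 0 lower, with a median log2 fold of 1.02. Iigp1, an immunity-related GTPase, was at 7.83, 7.74 and 7.47 on wild-type arrays 1 to 3 and at 9.90, 10.52 and 10.36 on sanroque arrays 1 to 3, a log2 fold of 2.58 ± 0.17 (SE; limma, Benjamini-Hochberg adjusted p = 0.00169). The chemokine genes Cxcl10 and Cxcl9 followed at 1.61 and 1.59, and Nlrc5, an activator of MHC class I genes, was higher by 1.02. With wild type replicate 1 left out 5 of these genes passed, with wild type replicate 2 left out 6, and with sanroque replicate 2 left out 7. With arrays centred on their medians 8 passed. The list ranged from 0.054 to 2.58 on the log2 scale.

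Of 24 measured type I interferon response genes 5 were higher and 0 lower, with a median log2 fold of 0.28. Oasl2, a relative of the antiviral oligoadenylate synthetases, was highest at 1.23 ± 0.14 (SE; limma, Benjamini-Hochberg adjusted p = 0.00623). The nucleic acid sensors Zbp1 and Ifih1 were higher by 0.70 and 0.67, and Samhd1, a nucleotide hydrolase, by 0.61. When single arrays were left out, Ifih1 passed only without wild type replicate 3. Samhd1 did not pass with wild type replicate 1 or either of sanroque replicates 1 and 2 left out. Ifih1 also failed with arrays centred on their medians (limma adjusted p = 0.118) and with an offset of 16 added to the intensities (0.0652). With the replicate number as a block neither passed (limma adjusted p = 0.133 for Ifih1 and 0.0514 for Samhd1). With wild type replicate 1 left out 2 genes of the list passed, with wild type replicate 3 left out 4, and 3 with any other single array left out. With arrays centred on their medians 3 passed.

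Of 15 measured genes of the interferon receptors and their signal transducers, 3 were higher and 0 lower (median log2 fold 0.27). Irf8, a transcription factor of myeloid and B cells that also acts in effector T cells, was at 6.64, 7.27 and 7.04 on wild-type arrays 1 to 3 and at 8.26, 8.60 and 8.66 on sanroque arrays 1 to 3, a log2 fold of 1.52 ± 0.18 (SE; limma, Benjamini-Hochberg adjusted p = 0.00587). Stat2 was higher by 0.79 and Ifnar2 by 0.45. With arrays centred on their medians only Irf8 passed, and it also passed whichever single array was left out. Stat2 did not pass when any wild-type array or sanroque replicate 2 was left out, and Ifnar2 did not when wild type replicate 1 or 3 or sanroque replicate 1 or 2 was. Of 13 other antiviral restriction factors, Serinc5 (0.62) and Adar (0.46) were higher and 0 lower. Neither passed with arrays centred on their medians. Adar did not pass when any single array was left out, and Serinc5 did not when wild type replicate 1 or 3 or sanroque replicate 2 was.

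Genes whose products modify or bind IFITM proteins include palmitoyltransferases, a ubiquitin ligase and tetraspanins. Over all genes 5.77% were called in either direction, so counts from this short list and the dispanin list say little. Of 10 measured, Cd81, a tetraspanin gene also strongly expressed by B and myeloid cells, was the only one called. It was at 7.21, 7.51 and 7.14 on wild-type arrays 1 to 3 and at 8.49, 8.01 and 8.29 on sanroque arrays 1 to 3, a log2 fold of 0.98 ± 0.14 (SE; limma, Benjamini-Hochberg adjusted p = 0.0148), and did not pass without wild type replicate 1. The list's median log2 fold was 0.0017. Of 5 measured genes of the wider dispanin family, to which the Ifitm genes belong, 0 passed (limma) and 0 had an unadjusted p below 0.05, with log2 folds between -0.12 and 0.20.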

How the data were processed

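Each probe set has 1 linear intensity on each array in the table the authors deposited, from 9.56 to 31996. Per the labels' protocols the arrays were hybridised with cRNA carrying biotin. The submitters' processing notes name Partek. The sources used here do not state how background, probe summaries and scaling were handled. Median intensities per array ran from 53.6 to 56.9, and arrays differed by at most 0.14 on the log2 scale at the quantiles compared, so log2 values were used as they were. Precision is limited by the number of arrays.

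Of 35399 probe sets, 21789 had exactly 1 symbol, 1621 several and 11989 none listed. Symbols were updated through the RefSeq gene table of GRCm38.p6 (19856 of 19938 genes matched). Genotypes were compared with limma 3.58.1 (lmFit and eBayes) in R 4.3.3, two-sided, adjusted over all 19938 genes. The script was tested on simulated data. The members, the 6 pathway lists and 11 cell-origin lists, and the tests were chosen with earlier results of these data known. Genes named beside the members were the most changed called genes and the brightest genes of each list, the neighbours of the cluster, the genes most like a member, and Rc3h1 and Cd44. Xist, Cd14 and the full CD4 T cell and NK cell lists were named after their values were seen. Alternatives were the mean of a gene's probe sets, minimum levels, scaling, an offset, variance models, array weights, a replicate block and leaving out arrays. Leaving out sanroque replicate 1 with wild type replicate 2 was added after seeing the data. Promoter sequences were RefSeq's, with matches for all 7 members. Figures were drawn with matplotlib 3.10.9.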

Additional observations from a re-analysis of the deposited data

How the results depend on the processing

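Ifitm1, Ifitm3 and Ifitm6 kept their direction and stayed past the threshold under every alternative run except a per-gene test without moderation. That test called 0 of 7 members after adjustment, although 4 had an unadjusted p below 0.05, and 4 genes over the whole table. The count of members called was 3 to 4 when single arrays were left out and 5 with array weights. The count over the whole table, 1151, was 218 to 1315 when single arrays were left out, 353 without sanroque replicate 1 and wild type replicate 2 together, 631 with arrays centred on their medians and 4733 with array weights. The labels do not say whether arrays with the same replicate number shared a litter or a day. Deviations of same-numbered arrays from their group means correlated at -0.05, -0.16 and -0.36. Differently numbered arrays reached 0.29, and with 3 arrays in each group such values can neither show nor exclude a pairing. With the replicate number as a block 3 members and 301 genes were called. Signs turned for values near 0 only: Ifitm5 to 0.10 with array weights (and from -0.15 to 0.081 when single arrays were left out), Rc3h1 to -0.049 with the mean of its probe sets, and Cd8a to 0.012 after quantile normalization. The causes were not tested. Scaling moved the median of all genes by at most 0.049 on the log2 scale.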
